A study of Mus musculus with 7 samples.

Results

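The gene set described here holds the genes of ribosome biogenesis and the genes around Myc that are tied to it. It was given as 42 gene symbols, grouped by function and proposed with earlier results of these arrays known, so the choice was not independent of the data. A member was taken as measured where a probe set of the deposited table carried its symbol alone in the platform annotation, and the probe set with the highest mean represented the gene. This gave 40 members among 12393 genes, while Npm3 and Dkc1 were not analysed here. The samples were mouse primary keratinocytes, the epithelial cells of the epidermis, transfected with small interfering RNA (siRNA) and collected after 48 h. Trp63 siRNA, directed at the gene of the transcription factor p63, was given in 5 samples (replicates 1, 2, 3, 4 and 7), and a non-specific control siRNA in 2 samples (replicates 5 and 6). Both groups were transfected, so an untransfected state is not among the samples. The labels name no strain, genotype or age, and nothing in them ties a replicate to a culture or animal of its own. The p-values therefore reflect how far these 7 arrays scatter, and that scatter may be technical.

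Ribosomes are built in the nucleolus, where RNA polymerase I transcribes a long precursor of the ribosomal RNAs. Small nucleolar RNA particles of the box C/D and box H/ACA classes modify this precursor by 2′-O-methylation and pseudouridylation, and large sets of assembly factors fold, cut and export the small and large subunits. Myc, with its partner Max, is known as an activator of genes at each of these steps, as well as of polyamine and nucleotide synthesis.

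Trp63 itself read 541, 519, 457, 503.7 and 492 with Trp63 siRNA and 1447 and 1683 with control siRNA at its brightest probe set (log2 difference -1.61, SE 0.088, limma adjusted p = 1.0e-05). The array medians lay between 207 and 214, and the small number of arrays limits the precision of all values. Silenced replicates 3, 4 and 7 resembled each other more than any other arrays did. The SD of their pairwise log2 differences over all probe sets was 0.075 to 0.091, against 0.142 between the controls and 0.260 between silenced replicates 1 and 3. Of 11 measured keratinocyte markers, 9 were called lower and none higher, and Krt14 and Krt5 still read 14825 and 11602 on average in the silenced arrays. Melanocyte markers divided the arrays across both groups. The summed intensity of the 9 measured melanocyte genes was 11517 and 12182 in silenced replicates 1 and 2 and 10249 in control replicate 5, and between 6839 and 7383 on the other 4 arrays.

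Nucleolar genes were lower by a small amount after p63 silencing. Of the 40 measured members, 14 (35%) fell and none rose at a limma adjusted p under 0.05, and 26 did not pass. Over all 12393 genes, 8.57% were called lower and 8.03% higher. The members called were Srm, Gar1, Ddx18, Nop16, Cad, Ddx21, Wdr12, Nop14, Nhp2, Ebna1bp2, Nop10, Fbl, Rrs1 and Nop56. Their folds ran from 1.12-fold to 1.38-fold lower on the scale of log2(intensity + 16), so no member changed strongly. The log2 difference was below 0 in 35 members and above 0 in 5, and 63.6% of all genes were below 0. The median difference of the members was -0.20, against -0.04 over all genes. In 25 members all 5 silenced arrays lay below both controls, an arrangement seen in 24.0% of all genes. In 2 members, Eif5a and Polr1c, all 5 lay above both controls (14.3% of all genes), and neither was called. At the other probe set of each the groups overlapped.

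**Figure D1:**
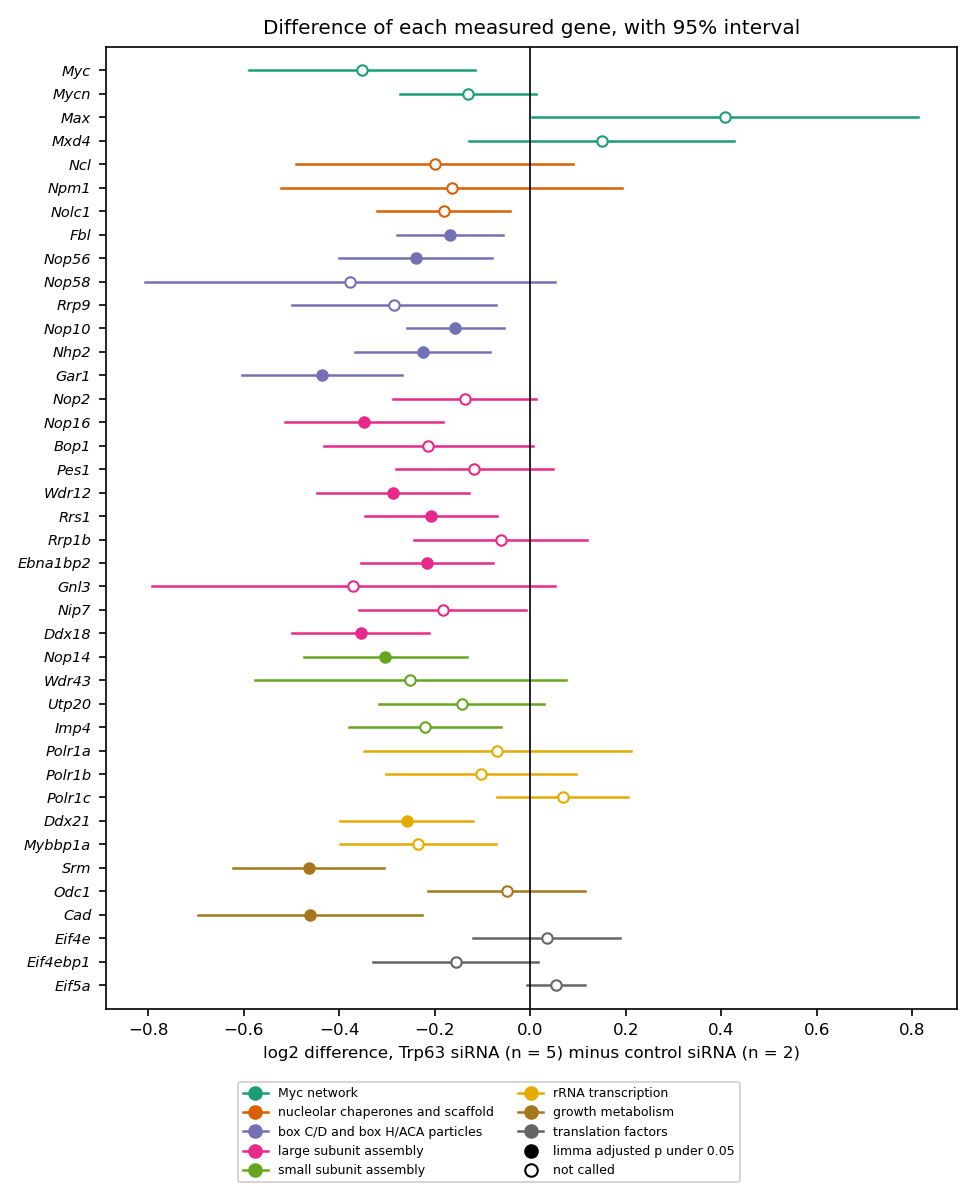
Log2 difference between Trp63 siRNA and control siRNA (horizontal axis) for each of the 40 measured genes, coloured by role, with lines for limma's 95% interval and filled points for an adjusted p under 0.05. The 14 filled points all lie left of 0, between -0.16 and -0.46.

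The number of calls depended on single arrays, and the direction of the median did not. Without control replicate 6, 2 members were called lower (2.78% of all genes), and without control replicate 5, 4 were (4.22%), of which 3 were among the 14. Without silenced replicate 3, 4 or 7 the counts were 6, 7 and 6 (5.84%, 5.95% and 5.67% of all genes), without silenced replicate 2 the count was 9 (6.84%), and without silenced replicate 1 it was 20 (15.3%). Averaging silenced replicates 3, 4 and 7 into 1 sample, a setting chosen after seeing the data, left 2 (3.80% of all genes). Under each of these settings the members' median stayed between -0.19 and -0.22. With all arrays kept, median centring ended the calls of Fbl, Nop56, Nop10, Rrs1 and Ebna1bp2 (adjusted p from 0.0584 to 0.0656), and quantile normalisation those of Rrs1 and Ebna1bp2 (0.057 and 0.0543). With the spike level as a block, Nop56, Nop10, Rrs1 and Ebna1bp2 were no longer called (0.0544 to 0.0675). Taking the mean of all probe sets of a gene kept 8 of the 14 calls and ended those of Fbl, Nop56, Nop10, Nhp2, Ebna1bp2 and Ddx21 (0.0502 to 0.21). Among those kept, Srm, Gar1, Nop14 and Rrs1 had 1 probe set each, so averaging left their own values unchanged and was no check on them. Among the members not called, Myc passed in 9 of the 21 settings, Mybbp1a in 8, Imp4 in 7, Nolc1 and Rrp9 in 3, Max and Bop1 in 2, and Gnl3 and Rrp1b in 1. Gar1 and Srm were called lower in all 21 settings tried, the main one included, with adjusted p of at most 0.0479 and 0.0414.

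**Figure D2:**
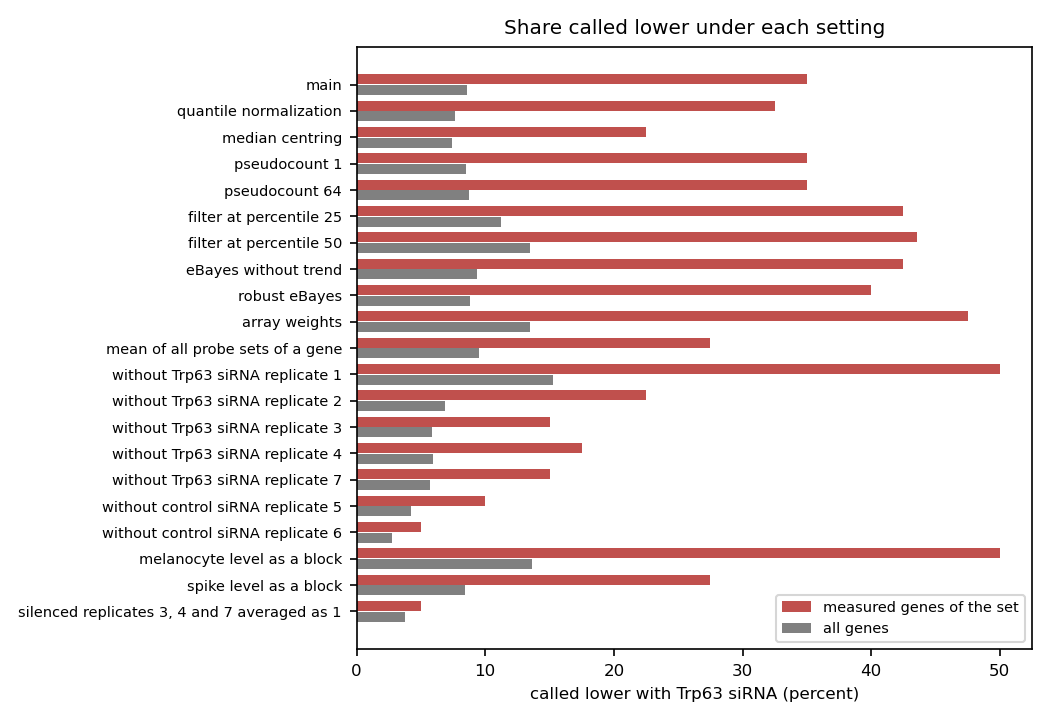
Share of measured members (red) and of all genes (grey) called lower with Trp63 siRNA (horizontal axis, percent) under each processing setting (vertical axis). The members' share ranges from 2 of 40, without control replicate 6 or with silenced replicates 3, 4 and 7 averaged, to 20 of 40 without silenced replicate 1 or with the melanocyte level as a block.

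The Myc network gave no call. Myc read 1104, 1039, 1250, 1181 and 1232 in silenced replicates 1, 2, 3, 4 and 7, against 1320 and 1668 in control replicates 5 and 6. All 5 silenced arrays lay below both controls, as in 24.0% of all genes, and the controls differed from each other by more than the silenced arrays did. The difference was -0.35 (SE 0.10, 95% interval -0.59 to -0.12) with a limma adjusted p of 0.0506. Myc passed without control replicate 5 (0.0297) or silenced replicate 1 (0.0425), and without control replicate 6 its adjusted p was 0.367. With all arrays kept it passed with the melanocyte or spike level as a block (0.00175 and 0.0476) and with the filters at percentiles 25 and 50 (0.0462 and 0.0429). It also passed with robust eBayes (0.0395), with array weights (0.0406) and with the mean of all probe sets (0.0463). Myc had 1 probe set, so averaging left its own values unchanged and added no further measurement.

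Mycn, the related gene of embryonic and neural cells, read 153, 143, 144, 168 and 151 against 170 and 165, below the median of every array. Silenced replicate 4 lay between the controls, and the groups gave a difference of -0.13 (limma adjusted p = 0.194). Max, the partner that Myc needs to bind DNA, read 531, 518, 481, 316 and 439 against 368 and 305. All its silenced values but that of replicate 4 were above both controls, and replicate 4 lay between the controls, so the groups overlapped. The difference of 0.41 (SE 0.18) did not pass (limma adjusted p = 0.161), passed without silenced replicate 4 (0.0173), and had the widest 95% interval of the network (0.0029 to 0.81). Mxd4, whose product competes with Myc for Max and represses transcription, read 446, 396, 477, 463 and 464 against 340 and 477. The controls spanned nearly all its silenced values, and the difference was 0.15 (limma adjusted p = 0.448).

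Among the box H/ACA proteins, which guide pseudouridylation, all 3 measured members were called lower, beside 8.57% of all genes. Gar1 read 877, 754, 847, 795 and 809 with Trp63 siRNA and 1112 and 1106 with control siRNA. The groups were separated by a gap larger than either group's range. The difference was -0.44 (SE 0.074, limma adjusted p = 0.00415), or 1.35-fold lower. Nhp2 read 3306, 2798, 2927, 3014 and 2962 against 3561 and 3453 (-0.23, SE 0.063, limma adjusted p = 0.0401). Nop10 read 3190, 2952, 3118, 3074 and 3025 against 3454 and 3399 (-0.16, SE 0.045, limma adjusted p = 0.0447). In both genes silenced replicate 1 was the highest of the silenced arrays and still below both controls. Both lost their calls when either control or silenced replicate 2, 3, 4 or 7 was left out, with adjusted p from 0.0609 to 0.221 for Nhp2 and from 0.062 to 0.217 for Nop10.

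Of the 4 box C/D genes, 2 were called lower, beside 8.57% of all genes. Fbl, which encodes the 2′-O-methyltransferase fibrillarin, read 2876, 2653, 2705, 2775 and 2731 against 3162 and 3016, a difference of -0.17 (SE 0.049, limma adjusted p = 0.0469). Nop56, a core scaffold of the particle, read 2074, 1890, 2160, 2191 and 2224 against 2564 and 2416, a difference of -0.24 (SE 0.071, limma adjusted p = 0.0492). In both genes all 5 silenced arrays lay below both controls, an arrangement seen in 24.0% of all genes. The calls of both ended without either control (adjusted p of 0.28 and 0.114 for Fbl, 0.283 and 0.13 for Nop56, for replicates 5 and 6) and without silenced replicate 3, 4 or 7 (0.0883 to 0.106 and 0.0647 to 0.0768), and that of Fbl also without silenced replicate 2 (0.0704). Nop58, the other scaffold protein gene, differed by -0.38 with a large error (SE 0.19, limma adjusted p = 0.214). Rrp9, a protein of the U3 particle, differed by -0.29 (SE 0.094, limma adjusted p = 0.0729), and passed without silenced replicate 1 (0.00482).

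Assembly of the large subunit was represented by 11 genes, of which 5 were called lower and 6 did not pass, beside 8.57% of all genes called lower. Ddx18, a nucleolar RNA helicase gene, read 701, 651, 663, 665 and 668 against 852 and 870. Its silenced arrays were tightly grouped and far from both controls (-0.36, SE 0.063, limma adjusted p = 0.00542). The call was lost without control replicate 6 (0.0635). Nop16 read 1196, 1065, 1042, 1060 and 1044 against 1416 and 1342 (-0.35, SE 0.073, limma adjusted p = 0.0123), with silenced replicate 1 above the other 4 silenced arrays. Its adjusted p was 0.111 without control replicate 5 and 0.0654 without control replicate 6. Wdr12, a member of the PeBoW complex that matures the 28S RNA, read 1018, 898, 1013, 994 and 1004 against 1231 and 1180. The difference was -0.29 (SE 0.071, limma adjusted p = 0.0234), and its adjusted p was 0.164 and 0.1 without control replicates 5 and 6 and 0.0547 and 0.0543 without silenced replicates 4 and 7.

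Rrs1, needed for incorporating the 5S particle, read 1044, 965, 1015, 1018 and 1030 against 1185 and 1163 (-0.21, SE 0.061, limma adjusted p = 0.0487). Ebna1bp2 read 1162, 1150, 1221, 1117 and 1165 against 1380 and 1327 (-0.22, SE 0.061, limma adjusted p = 0.043). All 5 silenced arrays lay below both controls in 24.0% of all genes. Neither gene overlapped between groups, and both calls ended without either control or silenced replicate 2, 3, 4 or 7 (adjusted p between 0.0666 and 0.228 for Rrs1 and between 0.0568 and 0.241 for Ebna1bp2). The 2 other PeBoW genes did not pass: Bop1 differed by -0.21 (limma adjusted p = 0.172) and Pes1 by -0.12 (0.309). Gnl3, the gene of the GTP-binding protein nucleostemin, read 1082, 1460, 1792, 1826 and 1746 against 1870 and 2167. All silenced values were below both controls and they ranged widely, so the difference of -0.37 had an SE of 0.19 (limma adjusted p = 0.215). Nop2, Nip7 and Rrp1b differed by -0.14, -0.18 and -0.06 (limma adjusted p = 0.197, 0.147 and 0.64).

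Of 4 genes of small subunit assembly 1 was called lower, beside 8.57% of all genes. In all 4 every silenced array was below both controls, an arrangement seen in 24.0% of all genes. Nop14 read 898, 839, 807, 912 and 807 against 1090 and 1020 (-0.30, SE 0.076, limma adjusted p = 0.0257). Its adjusted p was 0.191 and 0.0908 without control replicates 5 and 6, and 0.0589 and 0.0674 without silenced replicates 3 and 7. Imp4, of the U3-associated complex, differed by -0.22 (limma adjusted p = 0.0649), Utp20 by -0.14 (0.239) and Wdr43 by -0.25 (0.273).

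The catalytic part of RNA polymerase I was not called. Polr1a and Polr1b, which encode its largest subunits, differed by -0.07 and -0.10 with 95% intervals of -0.35 to 0.21 and -0.30 to 0.09 (limma adjusted p = 0.741 and 0.463). Polr1c, a subunit shared with RNA polymerase III, read 968, 916, 940, 922 and 956 against 904 and 888, a difference of 0.07 (limma adjusted p = 0.488). Ddx21, an RNA helicase gene linked to ribosomal RNA transcription and processing, fell. It read 1006, 1049, 1026, 1091 and 1074 against 1259 and 1258 (-0.26, SE 0.062, limma adjusted p = 0.0206), and passed neither without control replicate 5 (0.118) or 6 (0.122) nor without silenced replicate 3 (0.053). Mybbp1a, a nucleolar protein gene, read 1838, 1563, 1711, 1843 and 1715 against 2036 and 2045. All 5 of its silenced arrays lay below both controls, an arrangement seen in 24.0% of all genes. Mybbp1a differed by -0.24 (SE 0.072, limma adjusted p = 0.0565). It passed with quantile normalisation (0.0487), both filters (0.0479 and 0.0432), robust eBayes (0.0472), eBayes without trend (0.0496), array weights (0.0268) and the melanocyte block (0.0306).

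Genes of growth metabolism held the 2 lowest differences of the set. Srm, which encodes spermidine synthase of the polyamine pathway, read 1547, 1316, 1417, 1472 and 1448 against 1951 and 2030. This was 1.38-fold lower by limma (-0.46, SE 0.070, adjusted p = 0.00239), and no silenced array came near either control. Cad, the enzyme that starts pyrimidine synthesis, read 403, 321, 309, 342 and 318 against 447 and 494. Silenced replicate 1 stood highest among the silenced arrays (-0.46, SE 0.10, limma adjusted p = 0.0163), and the adjusted p was 0.0571 and 0.146 without control replicates 5 and 6. Odc1, the rate-limiting enzyme of polyamine synthesis upstream of Srm, read 2875, 2896, 3431, 3164 and 3091 against 3069 and 3325. Its groups overlapped, and the difference was -0.05 with a 95% interval of -0.21 to 0.11 (limma adjusted p = 0.68). The other probe sets of Odc1 differed by -0.11 and -0.24 (limma adjusted p = 0.473 and 0.0689). At the latter, the silenced arrays (614 to 717) lay below both controls (761 and 763), as in 24.0% of all genes.

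None of the 3 translation factor genes passed, beside 8.57% of all genes called lower and 8.03% called higher. Eif5a, the factor that carries the spermidine-derived residue hypusine, read 7517, 7518, 7592, 7759 and 7576 against 7218 and 7405. All silenced arrays were above both controls, as in 14.3% of all genes, by a difference of 0.05 (SE 0.027, limma adjusted p = 0.206). Eif4e, the cap-binding protein gene, differed by 0.03 (95% interval -0.12 to 0.19), and its sign turned when the other probe sets were averaged in. Eif4ebp1, which encodes an inhibitor of Eif4e, differed by -0.16 (limma adjusted p = 0.203).

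**Figure D3:**
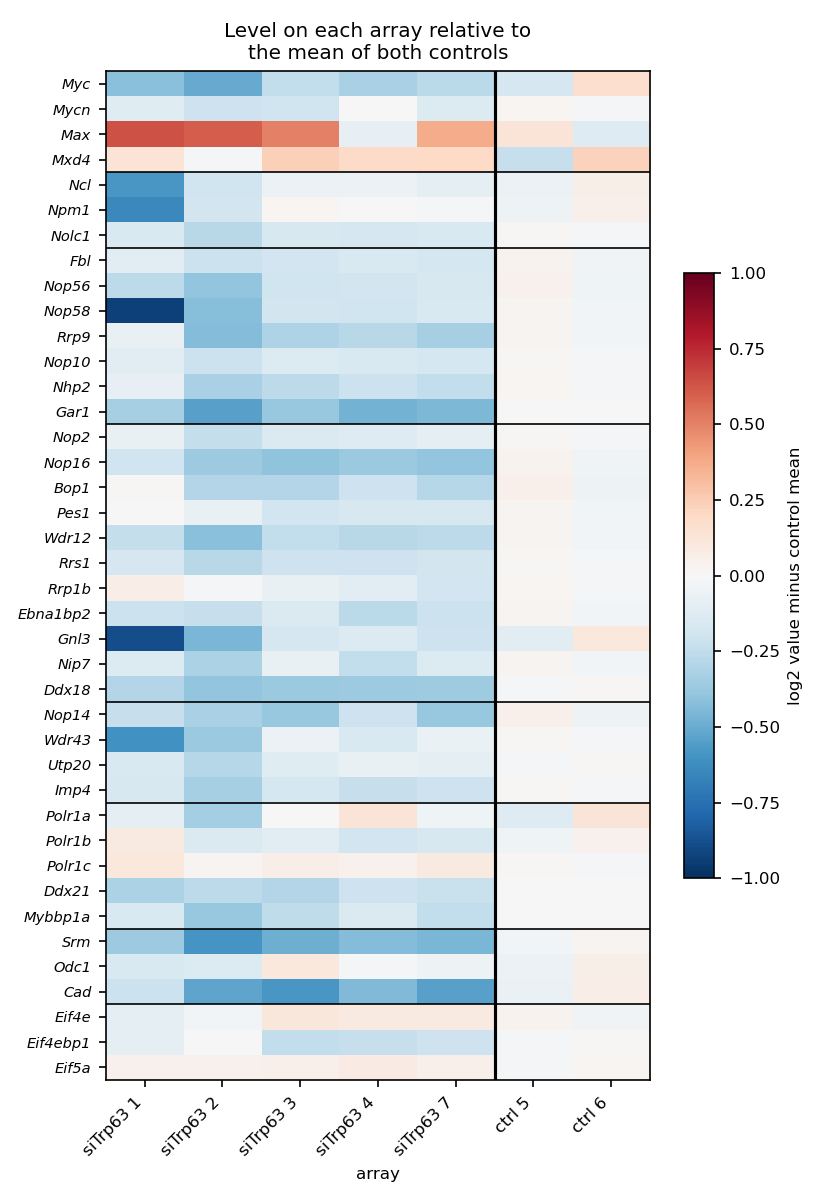
Log2 level of each measured gene (rows, in the order of roles) on each array (columns, 5 with Trp63 siRNA left of the thick line and 2 controls right of it), minus the mean of both controls. Most rows are blue in all 5 silenced arrays, Max is red in 4 of them, and Nop58, Gnl3, Npm1, Wdr43 and Ncl are darkest in silenced replicate 1.

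A small group of nucleolar genes varied among the silenced arrays themselves. Nop58, Gnl3, Npm1, Wdr43 and Ncl were lower in silenced replicate 1 than in the mean of replicates 3, 4 and 7, by -0.76, -0.72, -0.64, -0.51 and -0.51 on the log2 scale. They were grouped after their values were seen, as the 5 of 40 members at or below -0.3, a deviation found in 7.5% of all genes. Npm1, the histone chaperone and ribosome export factor nucleophosmin, read 5183 in silenced replicate 1 and 7133 in replicate 2, and 8199, 8081 and 8015 in replicates 3, 4 and 7, against 7822 and 8385 in the controls. Ncl, the gene of nucleolin, read 4122 and 5371 in replicates 1 and 2, and 5918, 5925 and 5772 in the others, against 5925 and 6443. In Npm1 the last 3 silenced arrays thus lay between the controls.

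Nop58 read 945 in silenced replicate 1, 1347 in replicate 2, and 1596, 1585 and 1639 in the rest, against 1856 and 1782. Wdr43, of the small subunit processome, read 549, 648, 810, 758 and 808 against 854 and 837. In both, silenced replicate 2 lay between replicate 1 and the other 3. None of the 5 genes was called in the main setting, and without silenced replicate 1 none passed either, the nearest being Nop58 (limma adjusted p = 0.0555). Gnl3 passed with the melanocyte level as a block (0.0209), and the other 4 in none of the 21 settings. Other probe sets of Ncl and Npm1 showed the same order. The remaining 3 Ncl probe sets read 2682, 1775 and 263 in silenced replicate 1, each below the other 4 silenced arrays, and the other Npm1 probe set read 3504 against 5529 to 6267. Nolc1, which encodes a chaperone of small nucleolar particles, did not share the pattern. It read 1171, 1077, 1167, 1163 and 1171 against 1313 and 1298 (-0.18, SE 0.062, limma adjusted p = 0.0804).

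**Figure D4:**
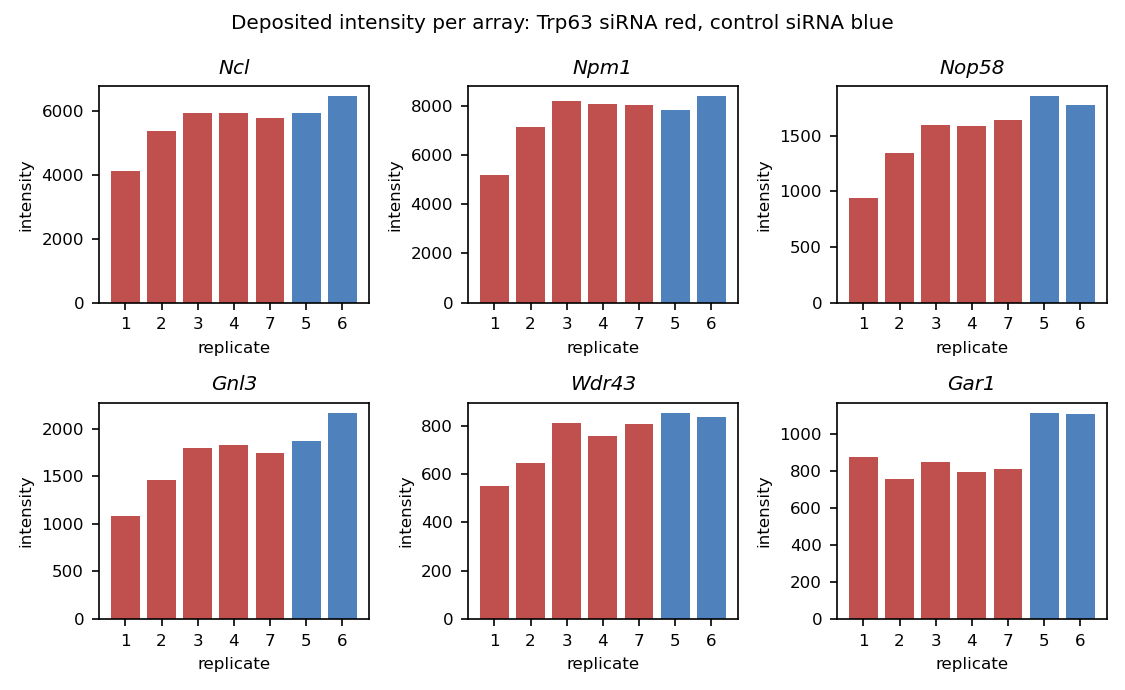
Deposited intensity (vertical axis, from 0) on each array for Ncl, Npm1, Nop58, Gnl3, Wdr43 and, for comparison, Gar1, with 5 Trp63 siRNA arrays in red and 2 control arrays in blue. The first 5 genes are lowest in silenced replicate 1, where Nop58 reads 945, whereas Gar1 reads 754 to 877 in all silenced arrays and 1112 and 1106 in the controls.

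Further probe sets of the members gave a check on the choice of probe set. The 40 members had 79 probe sets, and 27 members had more than 1. In 23 of these 27 all probe sets had a difference of the same sign. The signs differed in Mycn, Polr1a, Polr1c and Eif4e. Of the 39 probe sets that did not represent their gene, 8 were called lower and none higher. Over all 22626 probe sets, 3618 were called in either direction. The share of probe sets called lower, and that of genes with probe sets of the same sign, were not computed. Both Cad probe sets were called (-0.46 and -0.38), as were the brightest 2 of Ddx18 (-0.36 and -0.33) and both of Wdr12 (-0.29 and -0.18). Rrp1b, not called at its brightest probe set, was called at 2 dimmer ones (-0.35 and -0.27, limma adjusted p = 0.0071 and 0.0137). Imp4 and Nolc1, also not called at their brightest, were each called at their dimmest (-0.23 and -0.25, limma adjusted p = 0.0447 and 0.0225). The remaining Nolc1 probe set was not called (-0.09). Wdr43 was called at its other probe set (-0.51, limma adjusted p = 0.0471), where silenced replicate 1 was again lowest (447, against 565 to 668 in the other silenced arrays and 806 and 892 in the controls). In 7 called members the other probe set did not pass, namely in Ddx21 and Nop10 (-0.10 and -0.05, limma adjusted p = 0.544 and 0.639), Fbl (-0.10, 0.33), Nop56 (-0.23, 0.0689), Nhp2 (-0.18, 0.0769), Nop16 (-0.08, 0.199) and Ebna1bp2 (-0.13, 0.151).

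Other genes of the same pathway, taken from lists by function, were read in the same fit. Of 91 further ribosome assembly factors measured, 18 fell, none rose and 73 did not pass, with a median difference of -0.18. Mak16, a large subunit factor, was lowest (812 against 1358, -0.73, SE 0.069, limma adjusted p = 0.000199). Exosc5, a subunit of the RNA exosome, Utp25 and Pwp1 differed by -0.49, -0.44 and -0.43 (limma adjusted p = 0.00211, 0.00326 and 0.00448). Leaving out control replicate 6 reduced the number that fell to 5 and leaving out control replicate 5 to 7, as did averaging silenced replicates 3, 4 and 7, whereas without silenced replicate 1 it was 40. With the melanocyte level as a block or with array weights it was 35. The share called lower among these factors was 19.8%, beside 8.57% of all genes.

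Of 27 further genes of RNA polymerases I and III and their factors, 7 fell and none rose (median -0.13). The share called lower was 25.9%, beside 8.57% of all genes. Polr3g, a subunit variant of RNA polymerase III, fell most, from 661 to 312 (-1.05, SE 0.13, limma adjusted p = 0.000928). Taf1a, of the factor that places RNA polymerase I on its promoter, Ttf1, which ends its transcription, and Gtf3c1 fell by 0.26, 0.29 and 0.34 on the log2 scale. Their number was 1 without control replicate 6, 2 without control replicate 5 or with silenced replicates 3, 4 and 7 averaged, and 4 without silenced replicate 3 or 4.

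Of 19 further genes of the Myc and Max network, 2 were called lower and 1 higher (median -0.0048). These shares of 10.5% and 5.26% were near those over all genes (8.57% and 8.03%). Fbxw7, whose product marks Myc for degradation, fell from 612 to 388 (-0.63, SE 0.077, limma adjusted p = 0.000797). Mxd1, a repressor partner of Max that is known from differentiating epidermis, rose from 164 to 262 (0.63, SE 0.081, limma adjusted p = 0.00103). Fubp1 was the other that fell (-0.27, limma adjusted p = 0.0342). The number lower was 1 without either control, without silenced replicate 3, 4 or 7, with those 3 averaged, with the spike level as a block and with the mean of all probe sets.

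Cytosolic ribosomal protein genes differed little. Of 45 measured, 2 were called lower (Rpl12, 205 against 282, and Rps25, 1291 against 1616), or 4.44% beside 8.57% of all genes. The Rpl12 probe set was dim, at 186 to 229 in the silenced arrays, near the array medians of 207 to 214. Rps27l alone was called higher (6543 against 5652, 0.21, SE 0.035, limma adjusted p = 0.00399), or 2.22% beside 8.03% of all genes. The median of the list was 0.0061. Without control replicate 6 none was called in either direction, and without control replicate 5 or silenced replicate 3, 4 or 7 the number lower was 1. With quantile normalisation or the melanocyte level as a block, 2 were higher. Of 44 translation initiation and elongation factors, 3 fell and 2 rose (median -0.06), or 6.82% and 4.55%, below the shares over all genes. Eif4e3, a relative of Eif4e, fell from 396 to 223 (-0.79, SE 0.069, limma adjusted p = 0.000123), Eif3d and Mknk2 fell by 0.34 and 0.35, respectively, on the log2 scale, and Eif4e2 rose (0.28). Without control replicate 6, 1 fell and none rose, and without control replicate 5, 1 fell and 1 rose. None rose without silenced replicate 3, 4 or 7, and 8 fell without silenced replicate 1. With array weights 6 fell, with the melanocyte block 5 fell, and with the mean of all probe sets none rose.

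Of 23 genes of polyamine and nucleotide synthesis, 4 fell and 1 rose (median -0.10). These were 17.4% and 4.35%, beside 8.57% and 8.03% of all genes. Gart, of purine synthesis, fell from 1759 to 1165 (-0.59, SE 0.078, limma adjusted p = 0.00114), Shmt1, of one-carbon metabolism, fell by 0.55 on the log2 scale and Nme2 by 0.09. Oaz2, an antizyme gene that restrains polyamine synthesis, rose from 507 to 660 (0.37, SE 0.070, limma adjusted p = 0.00745). When control replicate 6 was left out 1 fell, when control replicate 5 or silenced replicate 7 was left out 2 fell, and when silenced replicate 1 was left out 8 fell. None rose when either control was left out, and 2 rose with the melanocyte level as a block.

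**Figure D5:**
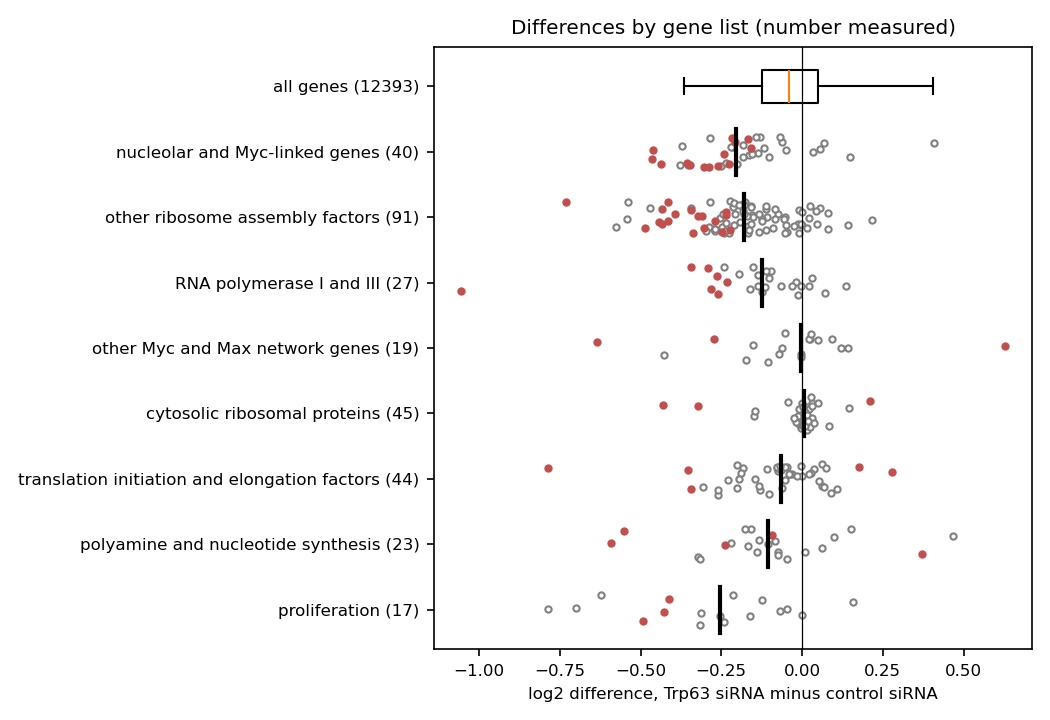
Log2 difference between Trp63 siRNA and control siRNA (horizontal axis) for the measured genes of each list (points, red where the limma adjusted p was under 0.05, black bars for the median), below a box of all 12393 genes (median, quartiles and 5th to 95th percentile). Medians are -0.20 for the nucleolar and Myc-linked genes, -0.18 for other assembly factors, -0.25 for proliferation genes and 0.0061 for cytosolic ribosomal proteins.

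Some measures of the arrays moved with the groups. The 3′ to 5′ signal ratio of the Gapdh control probe sets was 0.905 to 0.938 in the silenced arrays and 0.980 to 0.983 in the controls, and that of beta-actin was 1.14 to 1.25 against 1.30 to 1.36 (exact two-sided permutation p = 0.0476 for each, the smallest that 5 against 2 arrays allow). Of 17 proliferation genes, 3 fell (Cdc20, Ccnb2 and Plk1) and none rose, or 17.6% lower beside 8.57% of all genes. Their median difference was -0.25, beside -0.20 for the members, and 16 of the 17 were below 0. The number that fell was 8 without silenced replicate 1 and 10 with the melanocyte level as a block. The mean log2 level of the 17 genes was 9.81 and 9.67 in silenced replicates 1 and 2. It was 9.95, 10.05 and 10.04 in replicates 3, 4 and 7, and 10.10 and 10.30 in the controls. The summed intensity of 12 fibroblast markers was 2400 to 2574 in the silenced arrays and 1897 to 2205 in the controls. Of these markers 2 were called higher (Col5a2 and Col1a1) and none lower. Col5a2 read 277 to 365 against 176 and 179, and Col1a1 265 to 308 against 207 and 198. Postn read 343, 370 and 374 in silenced replicates 3, 4 and 7, but 169 and 178 in replicates 1 and 2, against 180 and 172. The difference was above 0 in 9 markers and below 0 in 3. Lum, Pdgfrb and Pdgfra were at 89.0, 114 and 138 in the silenced mean, below the array medians. Of 10 immune markers 1 was called lower (Tyrobp) and none higher, with sums of 1597 to 1704 against 1727 to 1763 and Ptprc at 74.9. Of 8 endothelial, blood and muscle markers 1 was called higher (Acta1), with sums of 1406 to 1544 against 1129 to 1241 and Cdh5 at 90.1. Acta1 alone read 514 to 675 in the silenced arrays, against 284 and 245 in control replicates 5 and 6. The difference was below 0 in 6 of the 8 markers, with a median of -0.03. The part of these measures in the nucleolar differences was not tested. In a bulk sample, fewer cells of a type and less RNA per cell cannot be told apart. The members' median was -0.24 among the arrays of high melanocyte level (2 silenced, 1 control) and -0.15 among those of low level (3 silenced, 1 control).

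RefSeq promoter windows of build GRCm38.p6, from 250 bases before to 50 after each annotated start, were searched for CACGTG, the E-box to which Myc and Max bind. The motif reads the same on both strands. A window was at hand for 33 of the 40 measured members and not for Myc, Fbl, Npm1, Rrs1, Bop1, Srm and Eif4ebp1, of which Fbl, Rrs1 and Srm were called. Of the 33, 10 (30.3%) held the motif, against 10.8% of the 9887 array genes with a window and 8.09% of all 27025 genes in the table. None of the 11 called members with a window held it, and 10 of the 22 members not called did. Among all array genes the share was 11.3% for those called lower and 12.4% for those called higher. Of 93 other ribosome assembly factors with a window 19.4% held it, and of 61 cytosolic ribosomal protein genes 9.84%. A match is a description of letters and not a shown binding site, and sites in first introns, known for several Myc targets, lie outside these windows.

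The matches of members with different roles are shown with 12 bases on each side, on the gene's strand, with the motif in capitals, to let the flanks be compared. The first is that of Max itself (chr12:76962234-76962263, minus strand), where the motif starts 3 bases before the annotated start. Those of Imp4 (chr1:34439696-34439725, plus strand), Nop2 (chr6:125131811-125131840, plus strand) and Wdr43 (chr17:71616220-71616249, plus strand) belong to ribosome assembly genes, those of Eif4e (chr3:138527192-138527221, plus strand) and Eif5a (chr11:69920791-69920820, minus strand), each 1 of 2 matches of its gene, to translation factors, and that of Mxd4 (chr5:34187912-34187941, minus strand) to a Max partner.
Max: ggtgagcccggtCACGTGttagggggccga
Mxd4: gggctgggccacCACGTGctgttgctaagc
Imp4: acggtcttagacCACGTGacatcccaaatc
Nop2: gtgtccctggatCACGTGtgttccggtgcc
Wdr43: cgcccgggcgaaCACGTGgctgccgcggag
Eif4e: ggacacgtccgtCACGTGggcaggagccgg
Eif5a: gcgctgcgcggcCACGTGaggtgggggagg

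For contrast, the 250 bases before the start of Gar1 (chr3:129831397-129831646, minus strand), the nucleolar member with the lowest called difference, are shown in lower case throughout, since CACGTG was not found in them or in the 50 bases that follow.
Gar1: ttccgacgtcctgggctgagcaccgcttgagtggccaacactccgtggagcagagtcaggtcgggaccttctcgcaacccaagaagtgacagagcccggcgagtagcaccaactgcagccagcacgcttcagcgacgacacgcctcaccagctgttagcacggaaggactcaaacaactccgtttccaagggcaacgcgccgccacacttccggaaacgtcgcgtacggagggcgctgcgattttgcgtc

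A related form, CACGCG or its complement CGCGTG, was searched after the first result was known. It was found in 12 of the 33 members with a window, 4 of the 11 called and 8 of the 22 not called (36.4% in each case), against 17.3% of array genes. The share was 39.3% among the genes of RNA polymerases I and III, 29.0% among the other ribosome assembly factors and 26.3% among the other Myc and Max network genes. It was 19.7% among cytosolic ribosomal proteins, 17.8% among translation factors, 11.1% in polyamine and nucleotide synthesis and 0% among proliferation genes. The 4 called genes were Ddx21, Nhp2, Nop10 and Nop16.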

How the data were processed

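Total RNA had been extracted with Trizol, converted to biotinylated cRNA and hybridised to Affymetrix arrays, per the labels' protocols. The values the authors deposited are linear intensities, 1 for each probe set on each array. Probe summary, background correction and normalisation are not given in the sources used here. Of 22690 probe sets, 64 controls were left out and 22626 tested. The platform annotation gave 20380 probe sets 1 symbol, 691 several and 1555 none, and 20351 matched a current gene by Entrez ID. Intensities became log2(intensity + 16), which understates folds of dim genes, and were fitted with limma 3.58.1 in R 4.3.3 (lmFit, eBayes with trend). P-values were adjusted by Benjamini and Hochberg's method across the 22626 probe sets, and a gene was called under 0.05. The procedure was tested on simulated data.

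The members and lists were chosen with earlier results of these data known. Every member could be named. Values on every array were given for the Myc network, the 14 called members and the highest-mean member of each role, and from each pathway list up to 4 called members with the smallest p. Nop58, Wdr43, Ncl and Nolc1 were described in full, and markers other than those the rule chose were named, after their values were seen.

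The settings varied were the normalisation (quantile, or centring on the median), the pseudocount (1 or 64), a filter on mean level (percentile 25 or 50), eBayes without trend or robust, array weights, the mean of all probe sets of a gene, each array left out, and the arrays' split by melanocyte marker or bacterial spike level as a block. Leaving out a control leaves 1 control, assumed to vary like the other group. Figures used matplotlib 3.10.9.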

Additional observations from a re-analysis of the deposited data

Results flagged for a closer look

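Among the 40 measured members, the highest or lowest of the 5 silenced arrays stood apart from the other 4 in 5 genes by Dixon's test on log2 values, in which the gap to the nearest array divided by the range must exceed 0.71. Chance alone marks about 1 group in 20 where the 5 values are independent and normally distributed. Some silenced arrays resembled each other far more than others did, so that rate need not hold here. The share marked over all genes was not computed. Whether 5 of 40 exceeds the background of these arrays was therefore not tested. Ncl (ratio 0.73) was low in silenced replicate 1, at 4122. Nop16 (0.839) and Polr1b (0.713) were high in silenced replicate 1, at 1196 and 697. Nolc1 (0.916) and Wdr12 (0.815) were low in silenced replicate 2, at 1077 and 898.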

How the results depend on the processing

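The members' count called lower was 14 with all arrays, 13 with quantile normalisation (12 of the 14 kept), 9 with median centring, 11 with the mean of all probe sets (8 kept) or the spike level as a block (10 kept), 16 to 19 with the filters, robust eBayes, eBayes without trend or array weights, 20 with the melanocyte level as a block, between 2 and 20 when 1 array was left out, and 2 with silenced replicates 3, 4 and 7 averaged as 1 (added after seeing the data). The count called higher was 0, became 1 with the melanocyte level as a block (Max), and was 0 to 1 when 1 array was left out. The members' median stayed below 0 in every setting, as did Trp63, which was called in all of them. Signs turned only in genes that were not called: Eif4e with the mean of all probe sets (-0.11), without control replicate 6 (-0.0041) and with replicates 3, 4 and 7 averaged (-0.0085), Mxd4 without control replicate 5 (-0.085), and Polr1a (0.058) and Odc1 (0.0077) without control replicate 6. With 1 array left out, Eif4e ranged from -0.0041 to 0.072, Mxd4 from -0.085 to 0.38, Polr1a from -0.20 to 0.058 and Odc1 from -0.11 to 0.0077. The cause of these changes was not tested, beyond fewer arrays in the fits that left some out. No paired analysis was possible because no replicate number occurs in both groups. The 2 controls limit the precision, as the intervals show.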
